A study of Homo sapiens with 18 samples.

Results

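The 28 genes described here encode proteins of the small (40S) subunit of the cytosolic ribosome, and they were taken as a fixed list of RefSeq protein-coding genes without their pseudogenes. They are 28 of the 20037 protein-coding genes of the annotation, and the list does not claim to hold every 40S gene. Every peak of MYC on RNA whose interval overlapped the hg38 span of one of them by at least 1 bp was counted. The peaks come from eCLIP, in which ultraviolet light joins a protein to the RNA it touches, the protein is pulled down, and the attached RNA fragments are sequenced. The cells were U2OS, an established osteosarcoma line, with the MYC knockout common to all samples and a doxycycline-inducible FLAG-tagged MYC that was wild type, 3A or 7A. Which residues 3A and 7A change is not given in the labels, nor whether a line is 1 clone. For each allele the series has 2 FLAG immunoprecipitates and 1 input after 24 h with 1 µg/mL doxycycline, and as many after 24 h with PBS. The files used here are 3 peak lists, 1 per allele with doxycycline, with 2149 peaks for wild type, 103 for 3A and 88 for 7A. Each list stands alone, so no value below has a replicate error. PBS samples were not analysed here, so no background in uninduced cells stands beside the counts. Sequencing depth is unknown, and the identity of the cells could not be checked from peak lists.

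The 40S subunit binds the messenger RNA, scans it for the start codon and reads codons in its decoding centre. It is built from 18S ribosomal RNA and a set of small, mostly basic proteins, each made from its own gene. Messages of ribosomal protein genes are among the most abundant in growing cells, and many begin with a 5′ terminal oligopyrimidine tract, a C followed by further C or T bases, through which growth signals set their translation. Introns of several of these genes carry small nucleolar RNAs. MYC is a transcription factor that is known to raise the output of the ribosome-making genes.

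The annotated start of each message is shown first because the tract at that position is the sequence feature most members share and because 12 members had a peak close to it. RefSeq start windows on GRCh38.p14 matched 25 of the 28 members, and RPS2, RPS15A and RPS20 had none. A tract was counted where the first transcribed base was a C that began an unbroken run of at least 5 C or T bases. Only a window whose start was the outermost end of the gene span was used, and other annotated starts were not scored. It was found in 18 of the 25 members (72.0%), against 4.57% of the 13819 protein-coding genes with such a window. The lines below give 10 bases before the start and the first 20 transcribed bases, 5′ to 3′ on the gene's strand, with the tract in capitals. RPS16, RPS25, RPS12 and RPS21 had a wild-type peak within 500 bp of the start, RPS24 had the member peak of highest fold enrichment, RPSA, RPS18 and RPS9 carried the tract and had no peak, and RPS4X and RPS15 had peaks and no tract.
RPS16, chr19:39435930-39435959, minus strand: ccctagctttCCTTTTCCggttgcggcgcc
RPS25, chr11:119018324-119018353, minus strand: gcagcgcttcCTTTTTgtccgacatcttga
RPS12, chr6:132814559-132814588, plus strand: cggatgaggcCTCTTTCCCTgccgccgccg
RPS21, chr20:62387093-62387122, plus strand: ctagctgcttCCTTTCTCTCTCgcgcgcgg
RPS24, chr10:78033853-78033882, plus strand: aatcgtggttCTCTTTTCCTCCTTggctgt
RPSA, chr3:39406710-39406739, plus strand: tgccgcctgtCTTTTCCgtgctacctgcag
RPS18, chr6:33272065-33272094, plus strand: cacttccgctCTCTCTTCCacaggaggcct
RPS9, chr19:54200848-54200877, plus strand: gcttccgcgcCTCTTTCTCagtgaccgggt
RPS4X, chrX:72277229-72277258, minus strand: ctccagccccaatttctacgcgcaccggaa
RPS15, chr19:1438386-1438415, plus strand: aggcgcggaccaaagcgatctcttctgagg

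Wild-type MYC had a peak in 19 of the 28 genes (67.9%, 95% Wilson interval 49.3 to 82.1), against 6.78% of all protein-coding genes. Among the 9916 protein-coding genes whose length lay within the members' range of 1394 to 27723 bp, the share was 7.65%. RNA abundance was not measured here, and its part in these shares was not tested. The 19 genes held 35 peaks: 8 genes had 1 peak, 7 had 2, 3 had 3, and RPS14 had 4. The 9 genes without a peak were RPS7, RPS9, RPS10, RPS15A, RPS18, RPS26, RPS27, RPS28 and RPSA. Gene length did not follow the number of peaks across the 28 genes (Spearman's rho -0.018, a description across genes of 1 list), and the genes without a peak were not shorter in the median, with 5661 bp against 4522 bp. The strand of the gene was known for 32 of the 35 peaks, and all 32 lay on it.

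**Figure D1:**
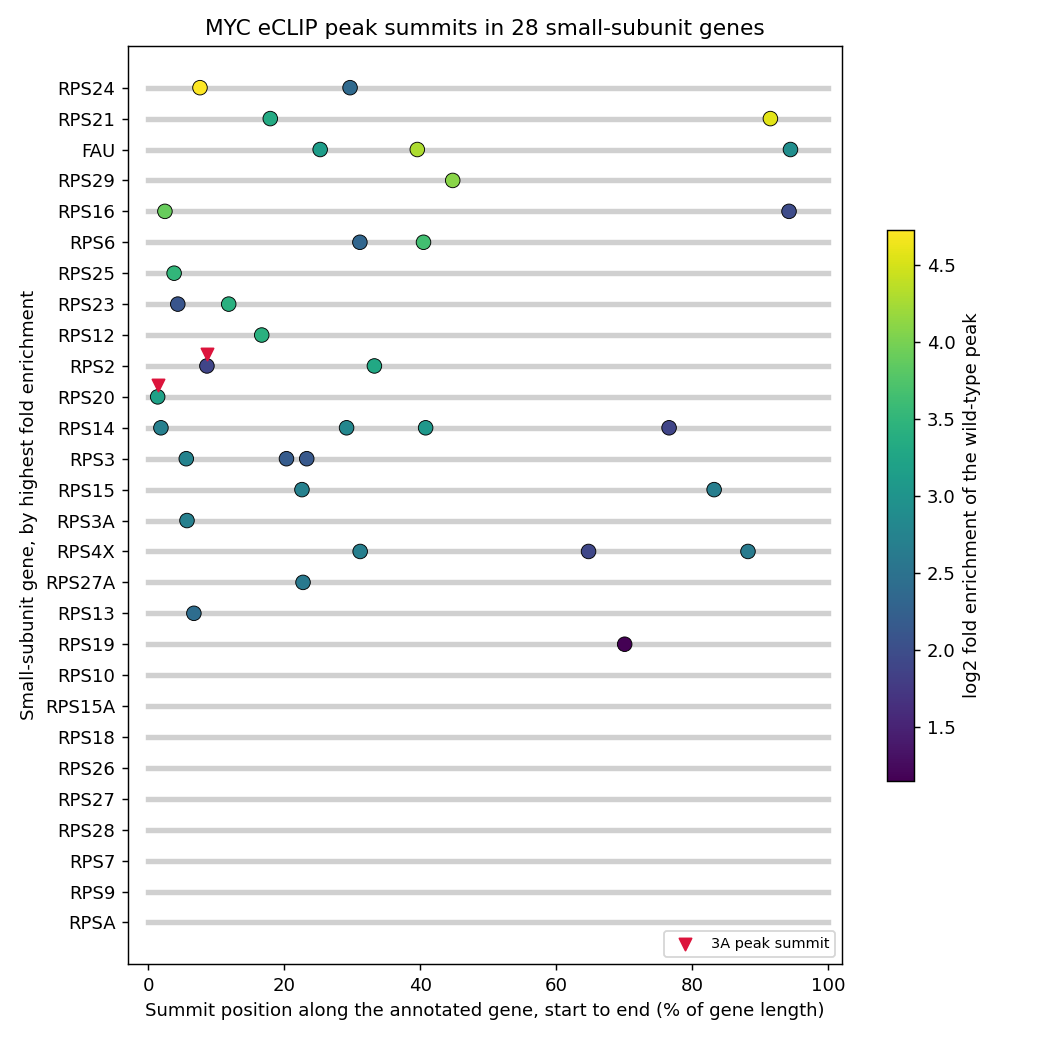
Summit positions along the 28 small-subunit genes, from the annotated start at 0% to the end at 100% of gene length. Circles are wild-type peaks coloured by log2 fold enrichment, red triangles are 3A peaks, and the 9 genes in the lowest rows have no peak.

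The fold enrichment that the authors gave each peak was moderate for most member peaks. Its median over the 35 was 6.55, below the median of 8.11 over all 2149 wild-type peaks, and 14 of the 35 reached that of the list. The values ran from 2.23 in RPS19 to 26.5 in RPS24. Ranked by −log10 q instead, a measure that also grows with the number of reads, the members stood higher: their median was 32.4 against 17.8 for the list, and 26 of the 35 were above it. The median member peak thus stood at the 33.9th percentile of its list by fold enrichment and at the 76.7th by −log10 q. The lowest −log10 q of a member peak was 5.08 in RPS3A, against 2.04 for the weakest peak of the list. That RPS3A peak ranked only 2059th of 2149 by this value.

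**Figure D2:**
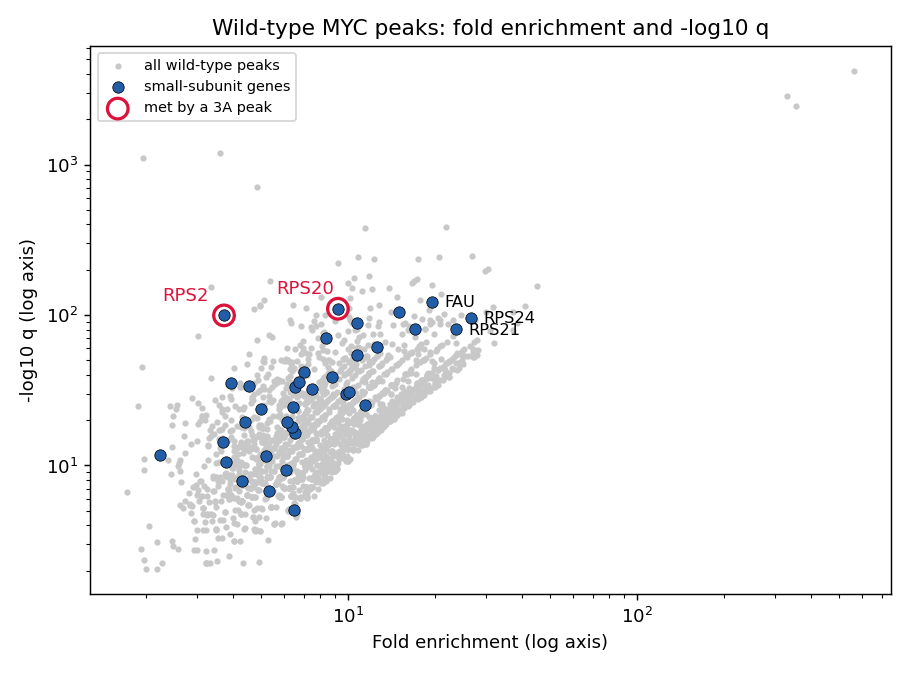
Fold enrichment against −log10 q, both on log axes, for the 2149 wild-type peaks in grey and the 35 in small-subunit genes in blue. The members' median −log10 q is 32.4 at a median fold enrichment of 6.55, and the circled peaks of RPS2 and RPS20 are the member peaks that a 3A peak met.

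Among proteins of the mRNA entry channel and decoding centre, 4 of 5 genes had peaks. FAU encodes the ribosomal protein eS30 fused to a ubiquitin-like protein. Its 3 peaks had fold enrichments, from the start of the gene, of 8.77, 19.4 and 7.51. The middle one, at chr11:65121459-65121599, had the highest −log10 q of all member peaks (123), and it ranked 37th of 2149 by that value. The last one ran 6 bp past the annotated gene end. RPS23, whose protein lies at the decoding centre, had a weaker peak with its summit 217 bp from the start (4.28) and a stronger one at 594 bp (10.7). RPS3, a protein of the mRNA entry site, had 3 peaks with fold enrichments of 6.76, 4.53 and 4.40, all in the first 23.3% of its 22785 bp span. RPS2, the neighbour of RPS3 at the entry site, had 2 peaks, of 3.71 and 9.84. The one of 3.71, at chr16:1964497-1964623, was near the bottom of the list by fold enrichment (rank 2001) and near the top by −log10 q (99.4, rank 60). RPS9 had none.

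On the exit side and platform of the subunit, 3 of 7 genes had peaks. The second highest member peak lay at the end of RPS21, at chr20:62388324-62388531. Its fold enrichment was 23.6 (rank 42), its −log10 q was 80.5, and it extended 11 bp past the annotated end. RPS21 also had a peak of 10.0 with its summit 254 bp from the start; the gene is 1418 bp long. RPS14, whose loss is known from the 5q deletion syndrome, had peaks of 6.51, 7.01, 8.35 and 3.69 in order from the start, spread from 1.83% to 76.6% of the gene. RPS3A had 1 peak of 6.49. The genes RPS26, RPS27, RPS28 and RPSA had none.

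Of the 10 genes for proteins of the head and beak, 8 had peaks. RPS29 had a single wide peak of 420 bp at chr14:49585949-49586368, with a fold enrichment of 17.1. Its summit lay 12404 bp from the outermost end of the annotated span of 27723 bp. Its distance from any other start of RPS29 is not known here. The upper edge of the peak lay 211 bp from RN7SL1, the gene of the RNA of the signal recognition particle, in the same span. RPS16 had its higher peak 12 bp from the annotated start (14.9, −log10 q 104) and its lower peak near the end (3.94). RPS25 had a peak of 11.4 that began 5 bp from the start, the closest of any member, and RPS12 had 1 of 10.7 with its summit at 499 bp. RPS20 had a single peak at chr8:56074330-56074466, with its summit 98 bp from the start, enriched 9.20-fold at a −log10 q of 110. RPS15, a protein needed for export of the young subunit, had peaks of 6.55 and 6.36. RPS27A, which encodes ubiquitin fused to a ribosomal protein, had 1 peak of 6.08, 898 bp from the outermost start and 113 and 123 bp from its other annotated starts. RPS19, the gene first tied to Diamond-Blackfan anaemia, had the member peak of lowest fold enrichment, 2.23, at 70.0% of its length. RPS10 and RPS18 had none.

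For proteins of the body, 4 of 6 genes had peaks. RPS24 held the highest member peak, at chr10:78035519-78035634, where the fold enrichment was 26.5 (rank 27 of 2149) and the −log10 q 96.0. Its other peak, 6802 bp from the start, had 5.19, the widest gap within a member at 5.10-fold. RPS6, the classic substrate of the S6 kinases, had peaks of 4.97 and 12.6 in neighbouring stretches of its middle. RPS4X had peaks of 6.45, 3.79 and 6.15, none within 500 bp of the start. RPS13 had 1 peak of 5.32, and RPS7 and RPS15A had none. The median fold enrichment of the peaks of the 4 role groups lay between 5.74 for the body and 7.87 for the head and beak. Each median rests on 7 to 10 peaks, and the differences were not tested.

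**Figure D3:**
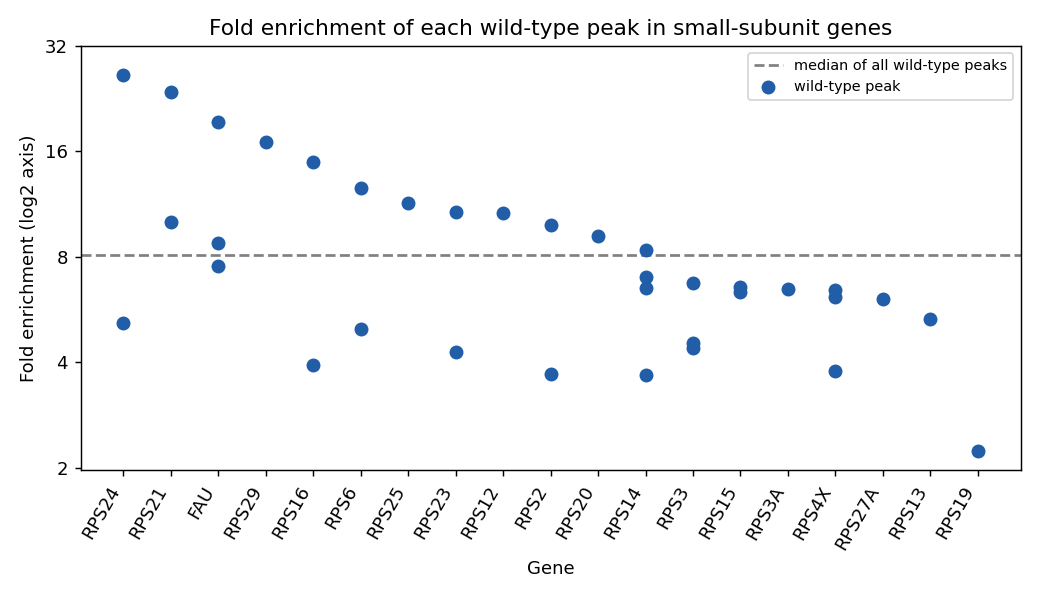
Fold enrichment of each wild-type peak in the 19 small-subunit genes that had one, on a log2 axis, with the median of all wild-type peaks (8.11) as a dashed line. In RPS24 and RPS16 the peaks of 1 gene differ by 5.10-fold and 3.79-fold, while the RPS15 pair differs by 1.03-fold.

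Within the 11 genes that had several peaks, the highest exceeded the lowest by 1.03-fold to 5.10-fold, with a median of 2.50-fold. The peak nearest the start was the highest in 5 of the 11, namely RPS3, RPS15, RPS16, RPS24 and RPS4X. Peaks of 1 gene come from the same libraries and are not replicates of each other.

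Summits lay within 500 bp of the annotated start for 12 of the 35 peaks (34.3%, Wilson interval 20.8 to 50.8), 1 in each of 12 genes, against 42.3% of the 1980 wild-type peaks in protein-coding genes. The 35 peaks come from 19 genes and are not independent, and the difference was not tested. With each gene divided into 5 stretches of equal length, the first stretch held 13 summits (37.1%) and the second 11 (31.4%), where all protein-coding genes had 50.7% and 9.60%. The last stretch held 5 (14.3%), against 20.8%. Large-subunit genes had 44.4% in the first stretch, 20.8% in the second and 13.9% in the last. Members are short, with a median of 4769 bp against 24115 bp, so the same share of a member spans fewer bases. The 12 start peaks belonged to RPS2, RPS3A, RPS12, RPS13, RPS14, RPS15, RPS16, RPS20, RPS21, RPS23, RPS25 and FAU. Distances were taken from the outermost end of the gene span, so RPS27A, near its other annotated starts, is not among them. None of the 35 peaks covered the annotated first base, and the nearest began 5 bp inside the gene. In all protein-coding genes, 1.21% of peaks covered it, and in large-subunit genes 0% did. By their coordinates, the capitals in the sequences above lie outside the RPS16 and RPS12 peaks. But for its last base, the RPS25 tract lies outside the RPS25 peak as well.

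**Figure D4:**
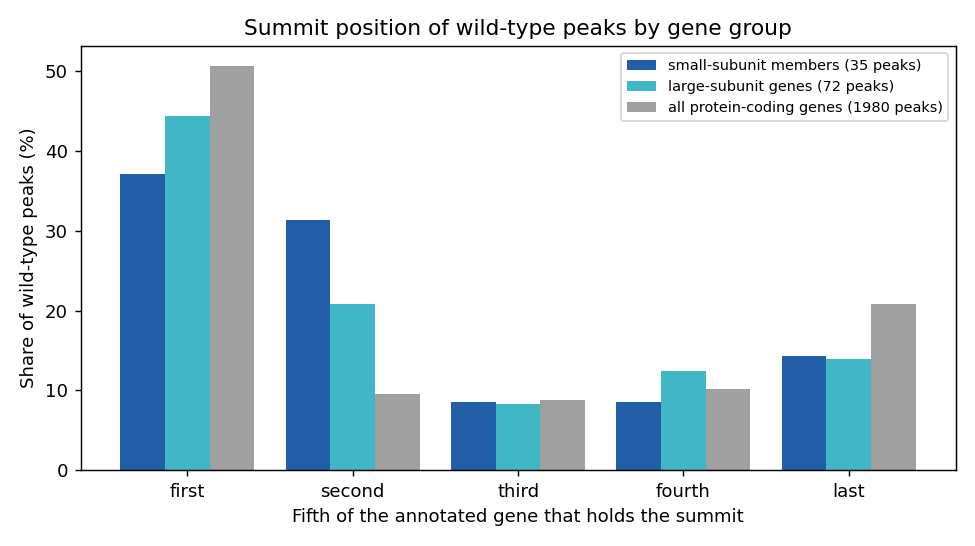
Share of wild-type peak summits in 5 equal stretches of the annotated gene, for 35 peaks in small-subunit genes, 72 in large-subunit genes and 1980 in all protein-coding genes. The second stretch holds 31.4% of the small-subunit summits, 20.8% of the large-subunit summits and 9.60% over all protein-coding genes.

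The tract and the peaks were set against each other as a description. Of the 18 members with the tract 13 had a wild-type peak, and of the 7 without it 4 did (RPS4X, RPS15, RPS27A and RPS29). The RPS27A peak had its summit 113 and 123 bp from other annotated starts, where the tract was not scored. Only a run at the outermost annotated base was scored, so the C and T run further inside the RPS15 window did not count. Among members with a peak near the start and a known window, 9 of 10 carried the tract, with RPS15 as the exception. Over the 13819 protein-coding genes with a window at the outermost start, 16.6% of the 632 with the tract had a wild-type peak and 6.98% of the others. With the small-subunit members and large-subunit genes left out, 74 of 588 genes with the tract (12.6%) had one. The hexamer CACGTG, the E-box to which MYC binds in DNA, was searched in the 300 bases from 250 before to 50 after the start, where it reads the same on both strands. It was present for 1 of 25 members, RPS28, against 8.95% of the 13819 protein-coding genes with such a window.

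No peak touched a small nucleolar RNA gene inside a member. The annotation places 14 of them in 7 members, and 6 of these hosts had a wild-type peak. The closest was SNORD15B in RPS3, 154 bp from the nearest peak, then SNORD101 in RPS12 at 183 bp and SNORD15A in RPS3 at 197 bp. In the whole list, peaks touched 9 of 1199 small nucleolar RNA genes.

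The 3A mutant had a peak in 2 members, RPS2 and RPS20, against 0.359% of all protein-coding genes, and the 7A mutant in none, against 0.270%. Member peaks made up 1.63% of the wild-type list (Wilson interval 1.17 to 2.26), 1.94% of the 3A list (0.534 to 6.81) and 0% of the 7A list (0 to 4.18). These intervals cover counting error over peaks only, and the differences were not tested. In RPS20 the 3A peak had the same start and end as the wild-type peak, and their summits were 1 bp apart. It ranked 33rd of 103 by fold enrichment (8.74) and 12th by −log10 q (97.4). In RPS2 the 3A peak began 1 bp from the wild-type peak, ended 14 bp before it on the chromosome and shared its summit. It ranked 97th of 103 by fold enrichment (2.36) and 61st by −log10 q (26.9), so this peak was low by fold enrichment in both lists. The fold enrichments of different lists are not on a known common scale and were not compared.

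The wild-type peaks that 3A met were the second and the fourth of the 35 by −log10 q. The other 3 of the first 5, in FAU (123), RPS16 (104) and RPS24 (96.0), were not met by any mutant peak. Over the whole list 3.54% of wild-type peaks were met by a 3A peak, and among the 10% with the highest −log10 q it was 24.2%. The members had 11 peaks in those 10%, of which 2 were met, and large-subunit genes had 18, of which 4 were met. For 7A the share over the whole list was 1.40%.

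Pseudogenes of the members are mostly processed copies that resemble the spliced message, so reads of a member can be placed in them. Of 656 such copies by name, 21 (3.20%) had a wild-type peak, 1 each, and none had a 3A or 7A peak. They belonged to 16 of the 28 parent genes. Among the 9 members without a peak of their own, 4 had a copy with one: RPS7, RPS10, RPS18 and RPS27. With members and copies counted together, 23 of the 28 had a peak, and RPS9, RPS15A, RPS26, RPS28 and RPSA had neither, although RPSA alone has 74 copies and RPS26 has 59. The highest was RPS21P4 with a fold enrichment of 44.8, above both peaks of RPS21 itself (23.6 and 10.0) and rank 4 of the list. RPS18P12 (20.2), RPS3P4 (17.3), RPS16P1 (17.1), RPS12P22 (16.2) and RPS27P27 (16.1) followed. Of the 12 parents with a peak both of their own and in a copy, the highest copy was above every peak of the parent in 7 (RPS3, RPS4X, RPS12, RPS16, RPS21, RPS25 and RPS27A) and below the parent's highest peak in 5 (RPS2, RPS13, RPS14, RPS15 and RPS24). In RPS24 the parent had 26.5 and its highest copy 9.33. Another protein-coding gene overlapped 8 of the 21 peaks. Among these was the only copy peak of RPS10, in AMBRA1, on which its place among the 23 rests. The highest copy peaks of RPS3, RPS25 and RPS27A, above the parent, and of RPS13 and RPS14, below it, were also among them. Which copy the reads came from was not tested.

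Large-subunit genes gave nearly the same share with a peak, 36 of 53 (67.9%), although that list by name includes tissue-restricted paralogues. Their 72 peaks had a median fold enrichment of 8.40 and a median −log10 q of 30.0, and the highest lay in RPL5 (27.4), RPL19 (24.8) and RPL8 (20.6). By position, 26.4% lay within 500 bp of the start (Wilson interval 17.6 to 37.6). By length of gene, the members had 18.4 peaks per 100 kb of span and the large-subunit genes 20.2. The list of 40S assembly factors is broad, and genes on it such as RRS1 and XPO1 are not particular to that subunit. Of its 68 genes, 28 (41.2%, Wilson interval 30.3 to 53.0) had a peak, and 20 of their 39 peaks (51.3%) lay within 500 bp of the start. They were led by NOP14 (22.2), NOP56 (20.1), SNU13 (19.9), PDCD11 (17.9) and FBL (17.6), factors of the early nucleolar precursor. Their median fold enrichment of 9.84 was above that of the whole list and their median −log10 q of 15.7 below it, where the small-subunit genes were below and above. The tract was present in 66.7% of 39 large-subunit genes and in 5.88% of 51 assembly factors, while CACGTG was present in 7.69% and 37.3%. None of these differences between gene groups was tested.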

How the data were processed

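Per the labels' protocols, RNase I and Turbo DNase were applied to lysates of crosslinked cells. The submitters' processing notes name BWA, cutadapt and MACS2 and the build hg38. Their versions and roles, the control of the peak calls and any pooling of replicates were not found in the labels. For each peak the authors deposited a fold enrichment (a ratio to an unnamed control), a −log10 q, a score derived from that −log10 q and a summit offset. The score was not used further. Values were ranked only within their own list.

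Peaks were turned to 1-based positions and assigned to RefSeq genes of GRCh38.p14 by an overlap of at least 1 bp. For all protein-coding genes, each peak was counted once, in the shortest gene. The table has no exons, so positions are along the gene span, read from its lower end for a plus-strand peak and from its upper end for a minus-strand peak. The gene's own strand came from the start windows. Of 69 names of assembly factors, 68 matched. The members, lists and role groups were chosen with earlier results of these data known. Genes were named by a fixed rule: members by highest fold enrichment, number of peaks, mutant peaks or none, and the first few of each other list.

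With 1 list per allele and no replicate values, no test was made between alleles or gene groups. Wilson intervals at 95% cover counting error over the peaks or genes counted only, and the interval of a median comes from binomial order statistics. Depth per sample is unknown. The code was checked on simulated peaks: all 200 placed in genes were returned at their set position, and 0 of 200 placed between the 20037 protein-coding genes were assigned. Those peaks were placed by the same rule that reads positions, each with a random strand. The check therefore could not show a peak read from the wrong end of its gene, and it did not cover the choice of the shortest gene. Python 3.11.15, pandas 2.3.3, NumPy 2.4.6, SciPy 1.17.1 and matplotlib 3.10.9 were used.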

Additional observations from a re-analysis of the deposited data

How the results depend on the processing

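Of 20 alternative values of 10 results, 16 stayed within 1.5 times a count or within the interval of a share or median. With peaks at or above the list's median fold enrichment, 12 members had a wild-type peak in place of 19, since fewer peaks were counted. Within 250 bp of the start lay 20.0% of member peaks in place of 34.3%. The shares over all protein-coding genes at either setting are not given here, so these values have no background beside them. The median percentile of member peaks, 33.9 by fold enrichment (interval 27.9 to 58.8), was 76.7 by −log10 q and 63.6 with the highest peak of each member alone. A −log10 q of at least 5 removed no wild-type or 3A peak of a member, where the lowest values were 5.08 and 26.9. It also removed none of a large-subunit gene, where the lowest was 5.38. The results on these genes could therefore not change with it, although they count among the 16. The count of assembly factor genes, where the lowest −log10 q was 4.51, stayed at 28. The summit in place of the overlap changed no count of members, of their wild-type peaks or of copies. The cutoff on −log10 q was not run for copies or 7A, and the summit rule not for large-subunit or assembly factor genes. No paired analysis was possible because the peak lists hold no values of single replicates, which also kept any replicate from being left out. Few mutant peaks and unknown depth limit every statement on 3A and 7A. Reads of a member and of its copies cannot be told apart here.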
